A study of Mus musculus with 14 samples.

Results

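The genes that make and break down heme were read here in hearts of 2 mouse models of mitochondrial disease. They are 8 genes chosen by name. *Alas1*, *Uros*, *Urod*, *Cpox*, *Ppox* and *Fech* encode 6 enzymes of heme synthesis, and *Hmox1* and *Blvrb* encode 2 enzymes of heme breakdown. Each of the 8 symbols matched 1 Ensembl gene among the 54532 gene identifiers counted, and all 8 passed the filter on low counts in both comparisons.

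Heme is built from glycine and succinyl-CoA. The first enzyme, 5-aminolevulinate synthase, works in the mitochondrial matrix and sets the pace of the pathway. The middle steps run in the cytosol, and coproporphyrinogen oxidase, protoporphyrinogen oxidase and ferrochelatase finish the ring and insert iron in the mitochondrion. Ferrochelatase of mammals carries an iron-sulfur cluster, and its substrate iron comes from the same mitochondrial pool that feeds cluster assembly. Heart muscle needs heme for the cytochromes of the respiratory chain and for myoglobin. Heme oxygenase opens the ring to biliverdin, carbon monoxide and iron, and biliverdin reductases make bilirubin.

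Hearts of 14 C57BL/6 mice were flash-frozen whole and read as 3′ tag libraries, in which each read comes from near the 3′ end of a transcript. The 4 YG8-800 mice carry a homozygous null allele of the endogenous gene that the model targets and a hemizygous human transgene of it, in every tissue, and the 4 WT mice are littermate controls. The 3 female and 3 male KIKO-700 mice carry a knocked-in human sequence in 1 allele of the same gene and a deletion of the other. No treatment was given. The labels give postnatal day 180 for all hearts, and the study's text gives 18 months. WT hearts of the KIKO-700 cohort were not analysed here, so line and cohort cannot be told apart. Levels are CPM, the counts of a library brought to a common total, scaled by edgeR's TMM factors over the 14 libraries.

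Libraries held 5226233 to 11650840 counts, so that 1 count stood for 0.0858 to 0.191 CPM before scaling. Genes of mitochondrial DNA took 28.9% to 44.6% of the counts of a library. *Actc1*, the cardiac actin, stood at 4918 CPM or more in all 14 libraries. The labels give no sex for the WT and YG8-800 mice, and the study's text says that only males were used. *Xist*, the RNA of the inactive X chromosome, was at 38.0 to 52.6 CPM in 5 of the 8 libraries, 3 labelled WT and 2 labelled YG8-800, and at 0.327 CPM or less in the other 3. In those 3, *Uty*, *Ddx3y* and *Eif2s3y*, genes of the Y chromosome, together stood at 57.2 CPM or more, against 0.528 CPM or less in the 5. The gene that the model targets, whose values are left out here, also went against the labels, with every library labelled WT below every library labelled YG8-800. The labels may therefore not stand for the genotypes of these 8 libraries. WT and YG8-800 below mean the libraries so labelled, and each direction between them is the direction as labelled. In the KIKO-700 hearts, the library male 1 stood apart from male 2 and male 3. Leaving it out raised the number of genes called between the sexes from 8 to 864, whereas leaving out any other KIKO-700 library gave 4 to 8.

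The bases upstream of *Alas1*, *Uros* and *Cpox* are shown because these 3 genes varied together across most of the libraries, as described below. RefSeq start sites of GRCm38.p6 gave 9 windows for 6 of the 8 genes, all but *Hmox1* and *Fech*, each from 250 bases before to 50 bases after a start, and the 250 bases before the start are printed 5′ to 3′ on the gene's strand. The windows lie at chr9:106247731-106247980 on the minus strand for *Alas1*, chr7:133709296-133709545 on the minus strand for *Uros* and chr16:58669958-58670207 on the plus strand for *Cpox*. Capitals mark the motifs found.
Alas1: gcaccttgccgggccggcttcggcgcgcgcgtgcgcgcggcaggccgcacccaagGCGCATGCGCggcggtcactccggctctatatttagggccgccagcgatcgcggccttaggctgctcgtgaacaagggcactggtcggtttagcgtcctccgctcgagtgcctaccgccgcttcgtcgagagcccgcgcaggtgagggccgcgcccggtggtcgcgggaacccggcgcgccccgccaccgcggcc
Uros: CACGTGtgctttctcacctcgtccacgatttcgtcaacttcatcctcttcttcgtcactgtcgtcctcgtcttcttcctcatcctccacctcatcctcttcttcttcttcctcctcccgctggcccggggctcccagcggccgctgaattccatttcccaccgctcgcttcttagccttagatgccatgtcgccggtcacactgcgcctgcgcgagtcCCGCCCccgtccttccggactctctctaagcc
Cpox: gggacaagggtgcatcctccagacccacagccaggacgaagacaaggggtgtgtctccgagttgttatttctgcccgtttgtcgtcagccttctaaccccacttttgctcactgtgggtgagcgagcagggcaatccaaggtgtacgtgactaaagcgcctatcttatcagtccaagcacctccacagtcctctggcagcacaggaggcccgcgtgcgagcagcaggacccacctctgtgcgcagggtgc
The motifs searched on both strands were the core of nuclear respiratory factor 1 (GCATGCGC), the E-box (CACGTG), the GC box (GGGCGG), the core of the antioxidant response element (TGACNNNGC), the CCAAT box (CCAAT), the TATA box (TATAAA) and the GATA motif (AGATAA). The *Alas1* window held the nuclear respiratory factor 1 core on both strands in 1 overlapping stretch, beginning at base −195 from the start site, and this stretch also falls in the window of the second *Alas1* start. That core was found in 2.73% of 32544 promoter windows of the same length and in no window of the other 5 genes searched. The *Uros* window held an E-box at base −250 and a GC box at −32, which were found in 7.17% and 35.9% of all windows. The printed *Cpox* bases held none of these motifs, and a GATA motif (11.2% of all windows) began at base 5 after its start. No window of the 6 genes held the antioxidant response element core (12.4% of all windows) or the TATA box (13.6%). These matches describe letters only.

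**Figure D1:**
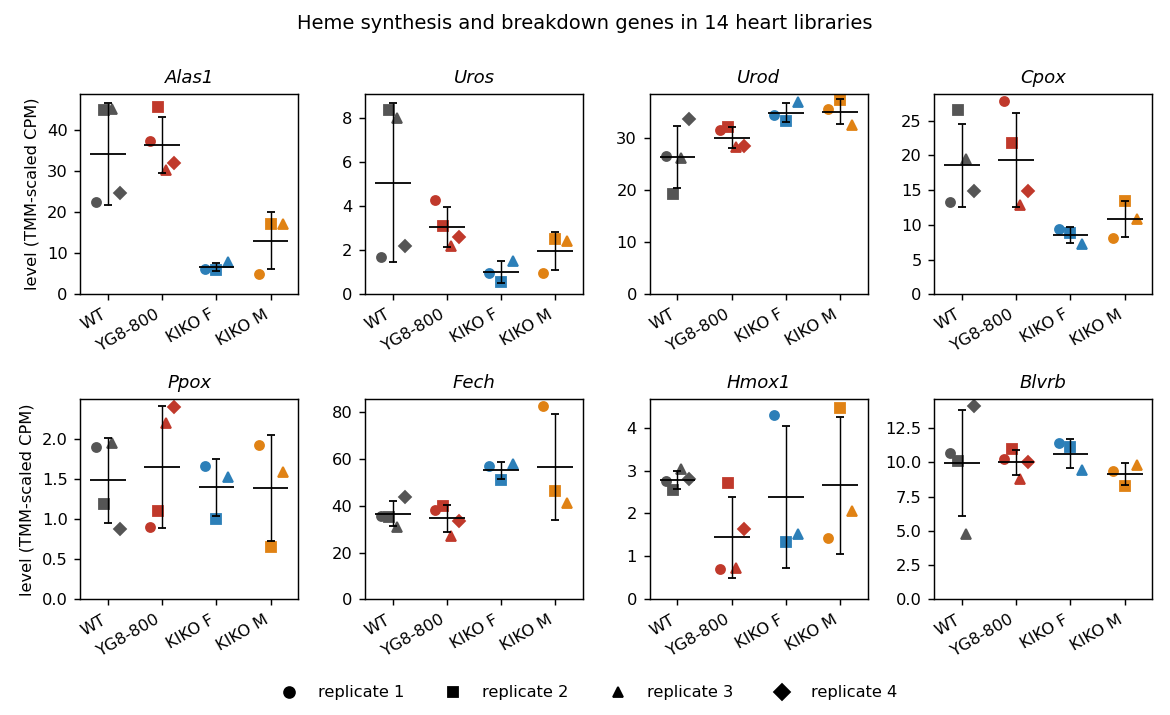
Level of each of the 8 genes in TMM-scaled CPM, with 1 point per library, a line at the group mean and bars of 1 SD (n = 4, 4, 3 and 3). *Alas1* lies between 22.4 and 45.6 CPM in the WT and YG8-800 libraries and between 5.04 and 17.1 CPM in the KIKO-700 libraries.

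In hearts labelled YG8-800, no heme gene passed the test against hearts labelled WT. Of the 8 genes, 0 were called at an adjusted p under 0.05 in edgeR's quasi-likelihood test, as were 0% of the 11875 genes tested. At an unadjusted p under 0.05 the heme genes also gave 0 of 8, beside 6.05% of all genes. DESeq2 called 7 of all genes and 0 of the 8. Fold changes lay on both sides of 0, in 5 genes above and in 3 below, with a median log2 fold change of 0.063 beside −0.0056 over all genes. In simulated counts of this design, where 100 genes were set to differ by a log2 of 1, the test found 12 with adjustment and 67 without, and where 100 were set to differ by a log2 of 2 it found 70 and 89.

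*Alas1*, the first and pace-setting enzyme (ENSMUSG00000032786, chromosome 9 of GRCm38 from 106233455 to 106248654), was at 22.4, 44.8, 45.1 and 24.6 CPM in WT 1 to WT 4. It was at 37.3, 45.6, 30.4 and 31.9 CPM in YG8-800 1 to YG8-800 4. The WT libraries fell into a low pair and a high pair, and all 4 YG8-800 libraries overlapped their range. The means were 34.2 ± 12.4 CPM (SD, n = 4) and 36.3 ± 6.86 CPM (SD, n = 4), a log2 fold change of 0.11 (standard error, SE, 0.29; edgeR adjusted p = 0.969). The 95% interval ran from −0.50 to 0.73, so that a change by a log2 of 1 in either direction lay outside it.

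*Uros*, which closes the ring of uroporphyrinogen (chromosome 7 from 133686243 to 133710072), was at 1.69, 8.36, 8.03 and 2.21 CPM in WT 1 to WT 4. It was at 4.30, 3.08, 2.20 and 2.62 CPM in YG8-800 1 to YG8-800 4. The same libraries WT 2 and WT 3 that held the most *Alas1* held the most *Uros*. The means were 5.07 ± 3.61 CPM (SD, n = 4) in WT and 3.05 ± 0.909 CPM (SD, n = 4) in YG8-800. It had a log2 fold change of −0.68 (SE 0.50, edgeR adjusted p = 0.878), with a 95% interval from −1.75 to 0.38 on 15 to 105 counts per library.

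*Cpox*, which makes protoporphyrinogen from coproporphyrinogen (chromosome 16 from 58670292 to 58717636), was at 13.3, 26.5, 19.5 and 14.9 CPM in WT and at 27.8, 21.8, 12.9 and 14.8 CPM in YG8-800. Again WT 1 and WT 4 were the lower pair of WT. This gave a log2 fold change of 0.09 (SE 0.31, edgeR adjusted p = 0.981; 95% interval −0.57 to 0.75).

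*Urod*, which decarboxylates uroporphyrinogen in the cytosol (chromosome 4 from 116989965 to 116994413), was at 26.6, 19.2, 26.2 and 33.7 CPM in WT and at 31.5, 32.1, 28.3 and 28.6 CPM in YG8-800. The YG8-800 values all lay inside the WT range. A log2 fold change of 0.22 (SE 0.24, edgeR adjusted p = 0.910; 95% interval −0.30 to 0.74) was fitted.

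*Fech*, the ferrochelatase on chromosome 18, was at 35.7, 35.3, 31.0 and 43.9 CPM in WT and at 38.0, 40.0, 27.1 and 33.5 CPM in YG8-800. The groups overlapped over most of their range. The log2 fold change was −0.04 (SE 0.24, edgeR adjusted p = 0.986), and its 95% interval, −0.55 to 0.46, was the narrowest of the 8 in this comparison.

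*Ppox*, which oxidizes protoporphyrinogen (chromosome 1 from 171275990 to 171281186), was the least counted synthesis gene. Its libraries held 6 to 18 counts in WT and 9 to 22 in YG8-800, at 1.48 ± 0.529 CPM (SD, n = 4) and 1.65 ± 0.757 CPM (SD, n = 4). The log2 fold change of 0.21 (SE 0.48) had a 95% interval from −0.82 to 1.24, which holds an increase by a log2 of 1 and leaves out a decrease of that size. In the last 1000 genomic bases of *Ppox*, 791 bases are exonic both in *Ppox* and in *B4galt3* on the other strand. The strand setting of the counts is described in 2 ways in the sources, so the counts of *Ppox* are uncertain.

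*Hmox1*, the inducible heme oxygenase and a target of the factors BACH1 and NRF2 (ENSMUSG00000005413, chromosome 8 from 75093621 to 75100589), had the fold change of largest size among the 8 genes with all libraries in the fit, and *Uros* exceeded it without WT 1, without WT 4 or without YG8-800 1. It was at 2.75, 2.55, 3.04 and 2.80 CPM in WT 1 to WT 4, and at 0.700, 2.71, 0.733 and 1.63 CPM in YG8-800 1 to YG8-800 4. These levels rest on 14 to 32 counts per WT library and on 7, 22, 5 and 15 counts in the YG8-800 libraries. The WT libraries lay close together, 3 of the 4 YG8-800 libraries lay below all of them, and YG8-800 2 lay inside their range.

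The means of *Hmox1* were 2.78 ± 0.201 CPM (SD, n = 4) and 1.44 ± 0.948 CPM (SD, n = 4), a log2 fold change of −0.90 (SE 0.47, edgeR adjusted p = 0.839). The 95% interval ran from −1.89 to 0.10, and the difference did not pass an unadjusted p under 0.05. Both YG8-800 libraries with the least *Hmox1*, 1 and 3, are those with *Xist*. With the *Xist* level as a covariate the log2 fold change was −1.35 (edgeR adjusted p = 0.809), which passed the unadjusted threshold only. Without YG8-800 2 it was −1.37 (edgeR adjusted p = 0.920), with the same outcome. These directions would turn around if the 2 labels were exchanged. The study's text reports an increase of *Hmox1* in YG8-800 hearts, the opposite of the direction as labelled here.

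Of the macrophage genes, *Cd163* and *Csf1r* also had lower means in the libraries labelled YG8-800. *Cd163*, the scavenger receptor for hemoglobin bound to haptoglobin on macrophages, was at 21.4, 12.02, 14.1 and 15.9 CPM in WT and at 4.10, 9.97, 3.37 and 12.2 CPM in YG8-800. Its 2 lowest libraries, YG8-800 1 and 3, were also the lowest of *Hmox1*. Its log2 fold change was −1.05 (SE 0.38, edgeR adjusted p = 0.786), past the unadjusted threshold of 0.05 only. *Csf1r*, the receptor that keeps macrophages alive, did not overlap between the groups, at 49.9 to 70.3 CPM in WT and 24.9 to 41.7 CPM in YG8-800. Of all genes tested, 2.43% lay wholly lower and 1.47% wholly higher in YG8-800 on this scale, and 3.18% and 0.682% did with library size alone. For *Csf1r* the log2 fold change was −0.72 (SE 0.24, edgeR adjusted p = 0.786), also past the unadjusted threshold only. The lowest *Csf1r* level was in YG8-800 2, the YG8-800 library with the most *Hmox1*. Of 10 macrophage genes, 2 passed an unadjusted p under 0.05, both lower, beside 6.05% of all genes. Of the 8 that did not pass, *Cd68* and *C1qc* had fold changes above 0 (0.38 and 0.05). The summed level of the list was 436 to 621 CPM in WT and 332 to 492 CPM in YG8-800. The part of macrophage content in the *Hmox1* difference was not tested, and in whole hearts fewer cells of a type and less RNA per cell cannot be told apart.

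**Figure D2:**
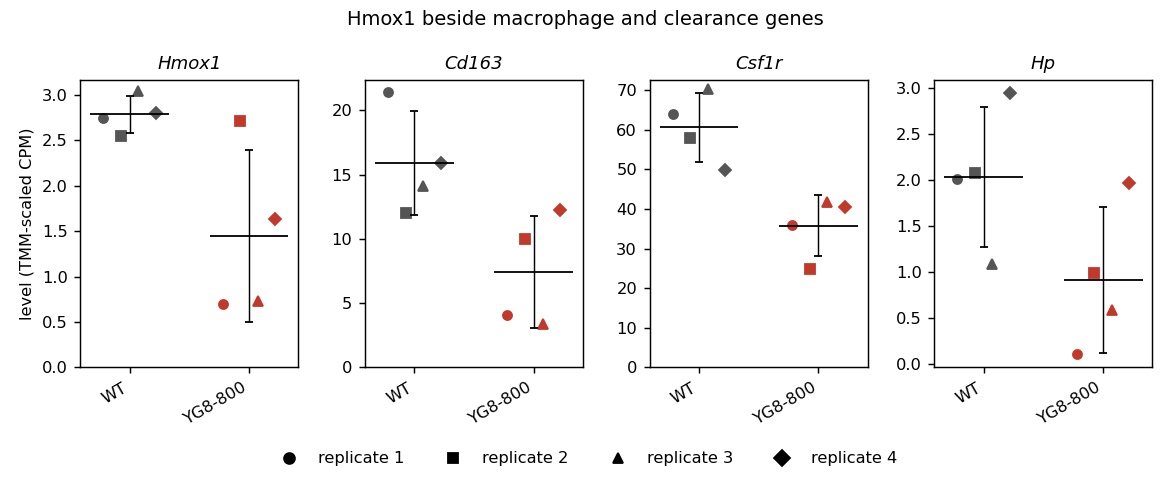
Levels of *Hmox1*, *Cd163*, *Csf1r* and *Hp* in TMM-scaled CPM in the WT and YG8-800 libraries, with 1 point per library, a line at the mean and bars of 1 SD (n = 4 each). YG8-800 1 and 3 are lowest in *Hmox1* (0.700 and 0.733 CPM) and in *Cd163* (4.10 and 3.37 CPM), and *Csf1r* does not overlap between the groups.

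*Blvrb*, a reductase of biliverdin and flavins that is abundant in red cells (chromosome 7 from 27447978 to 27466144), was at 10.7, 10.1, 4.77 and 14.1 CPM in WT. The 4 YG8-800 libraries lay between 8.80 and 11.0 CPM. WT 3, the library of least depth, held only 22 counts of it. *Blvrb* had a log2 fold change of 0.03 (SE 0.30, edgeR adjusted p = 0.990; 95% interval −0.61 to 0.68).

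Between KIKO-700 males and females, *Alas1* was the only heme gene at an unadjusted p under 0.05, with a higher mean in males, and it did not pass the adjustment. That is 1 of 8 genes beside 7.14% of the 11801 genes tested. At the adjusted threshold, 0 of the 8 were called, beside 0.0678% of all genes. Of the 8 genes, 7 had fold changes above 0 and 1 below, with a median log2 fold change of 0.076 beside 0.0059 over all genes.

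*Alas1* was at 6.19, 5.99 and 7.75 CPM in the 3 females and at 5.04, 17.1 and 17.1 CPM in males 1 to 3. Male 1 lay below every female, and males 2 and 3 lay above every female. The means were 6.64 ± 0.965 CPM (SD, n = 3) and 13.1 ± 6.96 CPM (SD, n = 3), a log2 fold change of 0.98 (SE 0.39, edgeR adjusted p = 0.658). Without male 1 the log2 fold change was 1.37 (SE 0.17, edgeR adjusted p = 3.30e-05), and without either of the other males it was 0.72 to 0.77. With no filter on low counts the fold change was 0.99 (edgeR adjusted p = 0.00587).

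*Uros* followed the same libraries, at 0.953, 0.554 and 1.52 CPM in females and 0.960, 2.49 and 2.43 CPM in males. These are 5 to 26 counts per library. The log2 fold change was 0.97 (SE 0.47, edgeR adjusted p = 0.707). Without male 1 it was 1.30 (edgeR adjusted p = 0.0551).

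*Cpox* was at 9.41, 8.87 and 7.24 CPM in females and 8.16, 13.4 and 10.8 CPM in males. Males 2 and 3 lay above all females and male 1 among them. The log2 fold change was 0.33 (SE 0.21, edgeR adjusted p = 0.804), and without male 1 it was 0.49 (edgeR adjusted p = 0.101).

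*Fech* went the other way in the same libraries. It was at 56.8, 51.0 and 57.7 CPM in females and at 82.6, 46.1 and 41.2 CPM in males 1 to 3, so that male 1 was the highest and males 2 and 3 the lowest of the 6. The log2 fold change was 0.03 (SE 0.23, edgeR adjusted p = 0.991), and without male 1 it was −0.34 (edgeR adjusted p = 0.120). Male 1 also held the most *Slc25a39*, a mitochondrial carrier of glutathione, at 243 CPM beside 144 to 175 CPM in the other 5. The summed level of the red-cell markers was 16819 CPM in male 1, inside the range of 13485 to 19437 CPM over the other 5.

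*Urod* was the steadiest of the 8 genes, at 34.4, 33.4 and 37.0 CPM in females and 35.7, 37.3 and 32.5 CPM in males. Its log2 fold change was 0.001 (SE 0.15), with a 95% interval from −0.32 to 0.32. *Blvrb* was at 10.6 ± 1.08 CPM (SD, n = 3) in females and 9.15 ± 0.798 CPM (SD, n = 3) in males, a log2 fold change of −0.22 (SE 0.18, edgeR adjusted p = 0.870).

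*Hmox1* was at 4.29, 1.33 and 1.52 CPM in females and 1.44, 4.46 and 2.06 CPM in males, with 1 high library in each sex. Its log2 fold change was 0.12 (SE 0.50), with a 95% interval from −0.98 to 1.23 that holds a change by a log2 of 1 in males. *Ppox* had 9 to 14 counts in females and 5 to 17 in males, and a log2 fold change of 0.02 (SE 0.43).

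Without male 1, 4 of the 8 genes passed an unadjusted p under 0.05, with *Alas1*, *Uros* and *Cpox* higher and *Fech* lower in males, beside 21.3% of the 12245 genes tested. At the adjusted threshold 1 of the 8 was called, beside 7.06% of all genes. Sex-linked differences and the spread among males cannot be told apart with 3 hearts of each sex of which 1 stands apart.

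**Figure D3:**
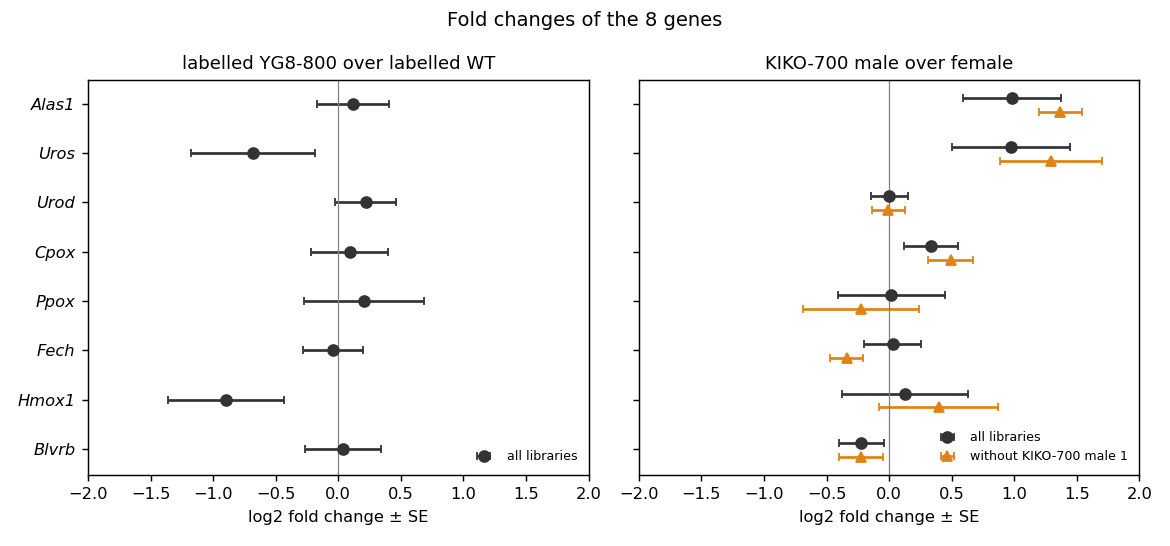
Log2 fold changes of the 8 genes with bars of 1 standard error from edgeR, for libraries labelled YG8-800 over WT (left) and for KIKO-700 males over females (right, with all 6 libraries as circles and without male 1 as triangles). *Alas1* in KIKO-700 is at 0.98 with all libraries and 1.37 without male 1, and *Fech* is at 0.03 and −0.34.

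*Alas1*, *Uros* and *Cpox* varied together within WT, YG8-800 and KIKO-700 males, whereas among KIKO-700 females *Cpox* went against *Alas1* and *Uros*. *Urod*, whose enzyme acts between those of *Uros* and *Cpox*, did not go with the 3 genes. After the mean of each group was subtracted from log2(CPM + 0.5), the correlation across the 14 libraries was 0.82 between *Alas1* and *Uros*, 0.72 between *Uros* and *Cpox* and 0.66 between *Alas1* and *Cpox*. These were the 3 pairs above 0.5 among 28 pairs of the heme genes, which ranged from −0.65 (*Cpox* and *Ppox*) to 0.82. The share of all gene pairs above 0.5 was not computed, so this count has no background beside it. Genes outside heme synthesis lay closer to each of the 3 genes, at 0.92 to 0.96 as listed below. The joint variation was thus not particular to heme genes. *Urod* had correlations of −0.28 with *Alas1*, −0.43 with *Uros* and −0.29 with *Cpox*. *Fech* had −0.64 with *Alas1* and 0.38 with *Urod*. Over the 8 WT and YG8-800 libraries alone these were −0.088 and 0.54, so the value with *Alas1* came from the KIKO-700 libraries. The values share libraries, depth and scaling factors, and 4 subtracted means leave fewer than 14 independent points, so they are a description.

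*Slc25a39* had negative correlations with the 3 genes, at −0.83 with *Alas1*, −0.75 with *Uros* and −0.75 with *Cpox*. This carrier was set beside them after its values were seen. In WT 1 and WT 4, where *Alas1* was low, it was at 84.8 and 107 CPM, and in WT 2 and WT 3 at 51.2 and 51.4 CPM. Among KIKO-700 females both *Slc25a39* and *Alas1* were highest in female 3, at 0.079 and 0.22 above the group mean on the log2 scale. The summed level of 8 cardiomyocyte genes went with *Slc25a39* in WT, at 36105 and 46406 CPM in WT 1 and WT 4 and at 21268 and 25619 CPM in WT 2 and WT 3. Among KIKO-700 males it was highest in male 1, at 49493 CPM beside 41959 and 37706 CPM. In KIKO-700 females 1 to 3 it was 41899, 40529 and 44194 CPM, in the same order as their *Alas1* (6.19, 5.99 and 7.75 CPM). In YG8-800 it was 29112 CPM in YG8-800 2, which held the most *Alas1*, and 32762 to 43781 CPM in the other 3. The part of cardiomyocyte content in these levels was not tested.

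**Figure D4:**
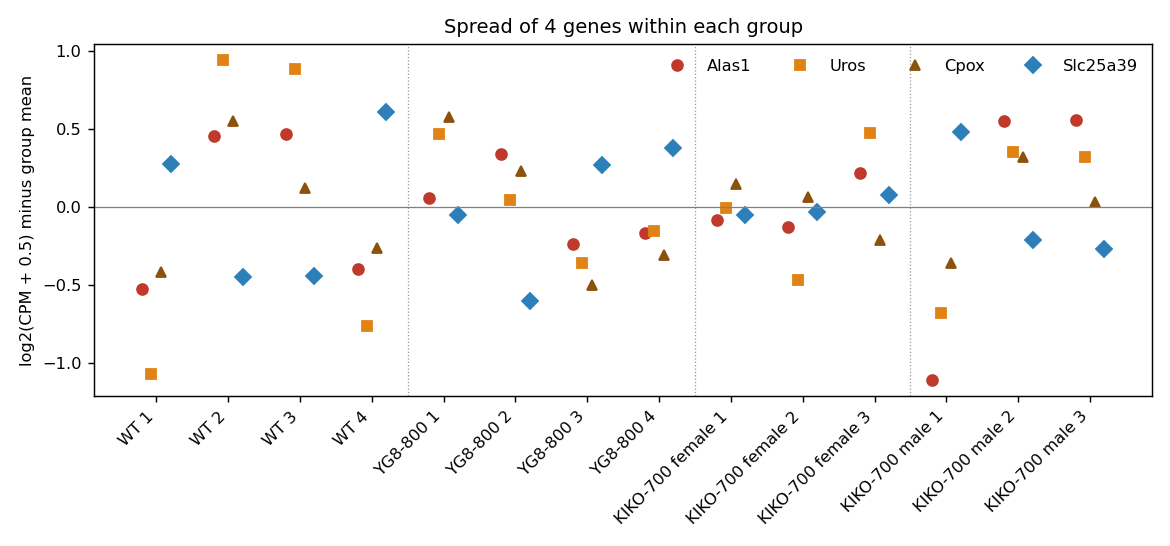
Log2(CPM + 0.5) of *Alas1*, *Uros*, *Cpox* and *Slc25a39* minus the mean of the library's own group, for the 14 libraries, with dotted lines between groups. *Alas1*, *Uros* and *Cpox* lie above 0 in WT 2, WT 3, YG8-800 1, YG8-800 2 and KIKO-700 males 2 and 3, and below 0 in KIKO-700 male 1, where *Alas1* is at −1.11. In KIKO-700 females 1 to 3, *Cpox* is at 0.15, 0.065 and −0.21 and *Alas1* at −0.086, −0.13 and 0.22, on opposite sides of 0.

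Among 6911 or 6912 other protein-coding genes with a mean of at least 5 CPM, those most like *Alas1* in this measure were *Rsph3b* (0.96), the ubiquitin ligase *Cop1* (0.95) and *Acadm*, the medium-chain acyl-CoA dehydrogenase of fatty acid oxidation (0.95). Those most like *Uros* were *Aagab* (0.94), the lysosomal *Aga* (0.93) and the mRNA cap methyltransferase *Rnmt* (0.92). Those most like *Cpox* were *Ndrg4* (0.94), the acyl-CoA dehydrogenase *Acad11* (0.92) and *Slc35f5* (0.92). *Urod* was most like *Alkbh7* (0.91) and 2 ribosomal protein genes, the cytosolic *Rps13* (0.90) and the mitochondrial *Mrps24* (0.90). *Fech* was most like *Polr2m* (0.90), *Fkbp5*, a glucocorticoid-responsive co-chaperone (0.89), and *Pdhb*, a subunit of pyruvate dehydrogenase (0.88). For *Ppox* they were *Wdr45b* (0.90), *Gpm6a* (0.85) and *Sart3* (0.84), for *Hmox1* the calcium channel gene *Orai3* (0.85), *Ilk* (0.82) and *Rps16* (0.78), and for *Blvrb* *Rbms2* (0.95), the collagen gene *Col6a2* (0.94) and *Tmem189* (0.93).

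Of 4 other enzymes of the route, none passed the test in either comparison, with 0 of 4 at an unadjusted p under 0.05. Over all genes, 6.05% passed that threshold in YG8-800 and 7.14% in KIKO-700. *Hmox2*, the constitutive heme oxygenase, was at 25.1 to 70.7 CPM over all 14 libraries, above *Hmox1* in every one. Its log2 fold change was −0.30 (SE 0.28) in YG8-800 and 0.17 (SE 0.16) in KIKO-700 males. *Alas2*, the form of the first enzyme in red cell precursors, had log2 fold changes of −0.37 (SE 0.34) and −0.08 (SE 0.17). *Alad*, the second enzyme of the pathway, had −0.14 (SE 0.30) and 0.05 (SE 0.17).

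Genes listed as carriers of porphyrins and heme gave 0 of 11 tested in YG8-800 and 0 of 10 in KIKO-700 at that threshold. The shares of all genes were 6.05% and 7.14%. The list's 3 most counted genes were *Slc25a39*, a carrier of glutathione, *Slc48a1*, which exports heme from lysosomes, and *Tmem14c*, a mitochondrial porphyrin carrier. Their log2 fold changes in YG8-800 were −0.12, 0.28 and 0.26 (SEs 0.31, 0.36 and 0.31). Of mitochondrial genes that use heme, 0 of 8 passed in YG8-800 and 1 of 7 in KIKO-700, beside 6.05% and 7.14% of all genes. The list gene that passed was *Hccs*, which attaches heme to cytochrome c, at a log2 fold change of 0.47 in males (SE 0.22, edgeR adjusted p = 0.697). *Cycs*, *Sdhc* and *Cyc1*, which encode heme-bearing parts of the respiratory chain, were the most counted of this list and had log2 fold changes of −0.04, 0.54 and 0.41 in YG8-800 (SEs 0.30, 0.32 and 0.27).

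Of 9 other genes of heme proteins, their partner subunits or their reductases, 0 passed in YG8-800 and 1 in KIKO-700. Beside them stood 6.05% and 7.14% of all genes. The list gene that passed was *Gucy1a1*, a subunit of the nitric oxide receptor, at −0.46 in males (SE 0.17, edgeR adjusted p = 0.625). *Mb*, the myoglobin gene, was at 3016 to 7972 CPM in all libraries, with log2 fold changes of 0.11 (SE 0.34) and 0.09 (SE 0.15). *Cat*, the catalase gene, had −0.47 (SE 0.24) and −0.13 (SE 0.18), and *Cygb*, the cytoglobin gene, −0.10 (SE 0.30) and 0.17 (SE 0.16).

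At an unadjusted p under 0.05, 1 of 8 genes that sense heme or regulate its synthesis passed in each comparison. The shares of all genes were 6.05% in YG8-800 and 7.14% in KIKO-700. In each comparison the 1 gene was *Nr1d1*, a heme-binding repressor of the circadian clock. It was at 14.6, 14.7, 22.6 and 16.2 CPM in WT and at 9.30, 10.8, 8.95 and 14.9 CPM in YG8-800, with a log2 fold change of −0.59 (SE 0.27, edgeR adjusted p = 0.825). In KIKO-700 males it had 0.48 (SE 0.20, edgeR adjusted p = 0.650). *Ppargc1a*, a coactivator of *Alas1* in liver, had log2 fold changes of 0.04 (SE 0.26) and −0.05 (SE 0.18). *Nfe2l2*, which encodes NRF2, had −0.02 (SE 0.27) and 0.06 (SE 0.20), and *Nr1d2* had −0.37 (SE 0.27) and −0.27 (SE 0.16).

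Targets of NRF2 other than *Hmox1* gave 0 of 7 tested genes in YG8-800 and 1 of 7 in KIKO-700. Over all genes the shares were 6.05% and 7.14%. The target that passed was the glutathione transferase gene *Gsta3*, lower in males at −0.64 (SE 0.20, edgeR adjusted p = 0.532). *Nqo1*, *Txnrd1* and *Srxn1*, the most counted of the list, had log2 fold changes in YG8-800 of 0.41, −0.21 and 0.17 (SEs 0.30, 0.27 and 0.27). Of 3 tested genes that clear hemoglobin and heme, *Cd163* passed in both comparisons, at −1.05 in YG8-800 and 0.46 in KIKO-700 males (edgeR adjusted p = 0.672). *Hp*, haptoglobin, had −1.12 (SE 0.62) in YG8-800 and *Lrp1*, a hemopexin receptor, −0.31 (SE 0.29).

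Markers of other tissues were read beside these genes, and those called higher or lower passed an unadjusted p under 0.05. Over all genes, 6.05% passed it in YG8-800 and 7.14% in KIKO-700. At the adjusted threshold the shares were 0% and 0.0678%. Of 6 red-cell markers tested, 0 passed in either comparison, with summed levels of 2029 to 5748 CPM in WT and 1309 to 4432 CPM in YG8-800. Of 9 atrial genes, *Fgf12* was lower in YG8-800 (log2 fold change −1.82) and *Nppb* higher in KIKO-700 males (1.85). Of 5 fat genes tested, *Adipoq* and *Cfd* were lower in YG8-800 (−3.13 and −2.42), and of 6 in KIKO-700 *Adipoq*, *Cfd*, *Plin1* and *Ucp1* were lower in KIKO-700 males (−1.08, −1.88, −1.89 and −2.23), with *Cfd* past the adjusted threshold. Of 3 liver genes tested, *Alb* and *Fgb* were lower in KIKO-700 males (−3.79 and −4.20), both past the adjusted threshold. *Alb* was at 5.32 to 11.4 CPM in the females and 0.120 to 0.842 CPM in the males. *Ttr*, the other liver gene, did not pass and stood apart in male 2, at 402 CPM beside 0.935 to 14.9 CPM in the other 5. Of 10 macrophage genes, 3 were lower (*Adgre1*, *C1qc* and *Lyz2*) and 1 was higher (*Cd163*) in KIKO-700 males at an unadjusted p under 0.05, beside 7.14% of all genes. Of cardiomyocyte genes 0 of 8 passed in either comparison, and of 3 skeletal muscle genes *Tnni2* passed in KIKO-700 (−0.84). The part of these tissues in the levels of the heme genes was not tested.

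Set side by side, the 2 cohorts differed most in *Alas1* among the 8 genes. Its mean was 35.3 CPM in the 8 WT and YG8-800 libraries and 9.86 CPM in the 6 KIKO-700 libraries, 3.58 times lower in KIKO-700, and the ranges did not overlap with TMM scaling or with library size alone. The other 7 genes overlapped, so that 1 of 8 did not overlap, beside 10.8% of the 13353 genes with at least 10 counts in 3 or more libraries. No test was made, because line, cohort and preparation cannot be told apart. The order of the group means of *Alas1* was YG8-800, WT, KIKO-700 male and KIKO-700 female. YG8-800 and WT overlapped, as did the KIKO-700 sexes through male 1.

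*Cpox* had means of 18.9 and 9.65 CPM in the same 2 sets, overlapping only through YG8-800 3 at 12.9 CPM, WT 1 at 13.3 CPM and KIKO-700 male 2 at 13.4 CPM. *Uros* had 4.06 and 1.49 CPM. *Fech* went the other way, at 35.6 and 55.9 CPM, and *Urod* was at 28.3 and 35.0 CPM. *Blvrb* was at 9.96 and 9.90 CPM, *Hmox1* at 2.11 and 2.52 CPM and *Ppox* at 1.57 and 1.39 CPM.

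Red-cell genes moved beside these levels. *Alas2* was 3.92 times higher in the KIKO-700 libraries, at 34.9 to 49.7 CPM beside 4.43 to 16.5 CPM, and *Hbb-bs* 5.04 times higher, at 3534 to 6917 CPM beside 443 to 1636 CPM. *Slc25a39* was at 144 to 243 CPM beside 42.1 to 107 CPM, with no overlap. The share of all genes without overlap between the cohorts was 10.8%.

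The summed level of the 9 atrial genes also separated the cohorts. It was 1702 to 2525 CPM in KIKO-700 and 139 to 1500 CPM in the other hearts, and *Bmp10*, *Stard10*, *Nppa* and *Dkk3* were 8.03, 3.62, 2.98 and 2.63 times higher with no overlap. The other 5 overlapped, and of these *Nppb* had the lower mean in KIKO-700. Over all genes, 10.8% did not overlap between the cohorts in either direction.

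Of the clock genes listed, *Nr1d1* overlapped between the cohorts, at 18.3 to 40.2 CPM in KIKO-700 and 8.95 to 22.6 CPM in the others, and *Nr1d2* did not. *Nr1d2* was at 59.3 to 84.6 CPM in KIKO-700 and 20.2 to 43.4 CPM in the other hearts, beside 10.8% of all genes without overlap. *Dbp*, named after its values were seen, was at 29.9 to 47.4 CPM beside 1.85 to 12.9 CPM, and *Arntl*, named in the same way, at 0.394 CPM or less beside 1.31 to 8.70 CPM. The labels give no time of day. The part of blood content, atrial content, time of collection and cohort in the *Alas1* levels was not tested.

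**Figure D5:**
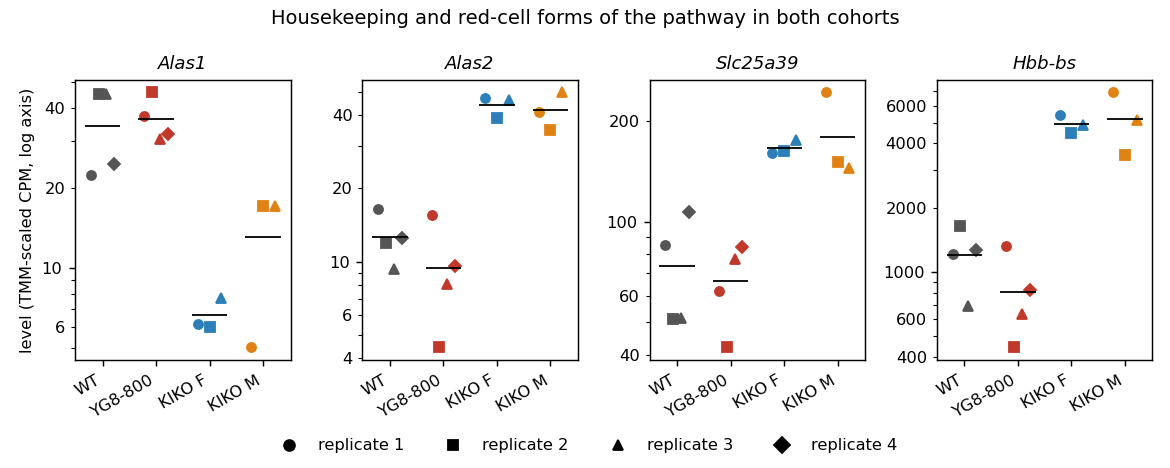
Levels of *Alas1*, *Alas2*, *Slc25a39* and *Hbb-bs* in TMM-scaled CPM on log axes, with 1 point per library and a line at the group mean. *Alas1* lies lower and *Alas2*, *Slc25a39* and *Hbb-bs* lie higher in all 6 KIKO-700 libraries than in all 8 others.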

How the data were processed

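RNA of 14 mouse hearts was read in Lexogen QuantSeq FWD libraries. The authors deposited whole-number counts of reads per Ensembl gene, 1 library per file, without normalization. The study's methods name Rsubread and featureCounts on stranded reads, whereas the notes of the submitters list GRCm38.p6, HTSeq 0.6.1 and STAR 2.5.0a. Molecular identifiers are not mentioned, so depth gives counting precision only. Of 54532 identifiers, 54495 matched GENCODE M21.

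Libraries were grouped by label. In R 4.3.3, edgeR 4.0.16 (filterByExpr, TMM, robust quasi-likelihood, Benjamini-Hochberg adjustment over all genes, threshold 0.05) compared YG8-800 with WT and KIKO-700 males with females. That replicates are separate animals comes from the study's text. The genes and lists were chosen with earlier results of these data known. Named genes were all 8 heme genes, list genes at an unadjusted p under 0.05, the 3 most counted of each list concerned with heme and the 3 genes most alike. Alternatives used RLE factors, library size, other filters, DESeq2 1.42.0, limma-voom (limma 3.58.1), a replicate block, each library left out, mitochondrial DNA and 4 Gm genes left out, all 14 libraries in 1 fit, and *Xist*. The fit was tested on simulated data. Values of the targeted gene, which went against the labels WT and YG8-800, and of 1 further gene are not reported here, and no label was changed.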

Additional observations from a re-analysis of the deposited data

How the results depend on the processing

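In YG8-800 against WT, 0 of the 8 heme genes were called at the adjusted threshold under the 18 alternatives, of which the 1 with at least 10 counts in every library did not test *Hmox1* and *Ppox*, and all fold changes of *Hmox1*, *Uros* and *Urod* kept their sign. With library size alone the median over all genes shifted to −0.21, and values were −0.048 for *Alas1*, −0.11 for *Cpox*, −0.056 for *Ppox* and −0.16 for *Blvrb*, all above that median. With all 14 libraries in 1 fit *Blvrb* was at −0.0029. Over all genes, 107 were called with no filter (1727 unadjusted), 7 with DESeq2 and 1 with all 14 libraries (1438 unadjusted). At an unadjusted p under 0.05, limma-voom and the *Xist* covariate each gave 1 heme gene, *Hmox1*. Leaving out 1 library gave 0 to 146 genes called, the most without WT 4, 484 to 1695 unadjusted, and 0 to 1 heme genes unadjusted (*Uros* without WT 1, *Hmox1* without YG8-800 2). The log2 fold changes then ran from −0.058 to 0.27 for *Alas1*, −0.14 to 0.31 for *Cpox*, −0.054 to 0.42 for *Ppox*, −0.18 to 0.27 for *Blvrb* and −0.11 to 0.083 for *Fech*.

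In KIKO-700, *Alas1*, *Uros* and *Cpox* stayed above 0 and *Blvrb* below 0 under every alternative in which they were fitted. Genes called numbered 105 with no filter (1475 unadjusted), 2 with at least 10 counts in every library, 18 with DESeq2 and 0 with all 14 libraries in 1 fit (186 unadjusted). With no filter 1 heme gene was called (*Alas1*) and 2 passed unadjusted, and limma-voom gave 0 unadjusted. *Urod* was at −5.1e-04 with library size alone and −4.5e-05 with limma-voom, which also gave −0.051 for *Ppox* and −0.038 for *Fech*. Leaving out 1 library gave 4 to 864 genes called, the most without male 1, 460 to 2610 unadjusted, 0 to 1 heme genes called and 0 to 4 unadjusted. Log2 fold changes then ran from −0.036 to 0.055 for *Urod*, −0.23 to 0.33 for *Ppox*, −0.34 to 0.21 for *Fech* and −0.42 to 0.86 for *Hmox1*. The causes were not tested.

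Replicate numbers did not pair the libraries, with correlations between same-numbered libraries of −0.23, 0.25, −0.03 and 0.13 in YG8-800 and WT and −0.16, −0.04 and −0.19 in KIKO-700. With the replicate block, 0 genes were called (867 unadjusted) in YG8-800 and 6 (628 unadjusted) in KIKO-700, where *Ppox* was at −0.048 and *Fech* at −0.035.

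Depth limits *Hmox1*, *Uros* and *Ppox*, with 5 to 36, 5 to 105 and 5 to 22 counts per library.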
